A study of Sus scrofa with 48 samples.

Results

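Blood vessels, lymphatic vessels and the cells that wrap them were followed in the subcutaneous fat of growing pigs through 45 genes that mark these cells or signal to them. The genes were chosen by name from a written list, in which the blood endothelial markers number 21, the leukocyte adhesion genes 4, the lymphatic endothelial genes 4, the mural cell genes 4 and the angiogenic and hypoxia genes 12. A probe was named for 40 of them, and 39 were measured, meaning that at least 1 named probe was well above background on 9 or more of the 12 arrays of a group, out of 11092 genes measured in all by the same rule. PDGFB, VEGFC, ESAM, EMCN and FLI1 had no named probe, and the only FLT4 probe was well above background on 1 of 48 arrays. Where a gene had several measured probes the brightest was used, and other probes are given for some genes below.

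RNA came from 48 castrated male Large White pigs aged 132 days, 1 array each, in 4 groups of 12. The pigs belonged to lines bred apart over generations for residual feed intake (RFI), the feed eaten beyond what growth and maintenance predict, so that low RFI pigs are the more efficient ones. Within each line, pigs ate freely either a diet rich in fat and fibre (HF) or one low in fat and fibre and rich in starch (LF), so diet here means a change of fat, fibre and starch together. The study reports that HF pigs also ate less, ended lighter and carried less subcutaneous fat for their weight. The groups are named by diet and then line, as in HF pigs of low RFI, and no pig ate any other diet during the feeding trial. Each diet came in a growing and a finishing formula. Each value is the log2 of the background-subtracted fluorescence of a probe minus the median of its array, so a level of 0 is the array median. Probes differ in how well they bind, so levels of different genes cannot be set against each other. The arrays lay on 6 slides, each with 2 arrays of every group, and were scanned on 2 dates with 24 arrays each. Between 62.2% and 81.9% of probes were well above background on an array. Whole tissue was extracted, so fewer vessel cells and less RNA per vessel cell cannot be told apart.

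Endothelial cells line all vessels and are held together by PECAM1 and the cadherin CDH5. Growth factors of the VEGF family, made by adipocytes and other tissue cells, act on endothelial receptors such as FLT1, KDR and FLT4, and angiopoietins act on TEK. HIF1A and EPAS1 are transcription factors that are stabilised when oxygen is low and raise VEGFA and glycolytic genes. Pericytes and smooth muscle cells, the mural cells, sit around blood vessels, while lymphatic capillaries carry few of them and owe their identity to the transcription factor PROX1. White fat is densely supplied with capillaries, and its vessels grow with it.

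The probes were oligonucleotides of 60 bases, and 97 of them were named for these genes, 94 of them measured. Some sequences are given to show what read the genes described below and how far probes of 1 gene overlap. PROX1 was read by a pair of probes that share 41 bases, in capitals, and agreed closely:
PROX1 O12600: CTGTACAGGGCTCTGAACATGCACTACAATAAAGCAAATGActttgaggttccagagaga
PROX1 A_72_P321423: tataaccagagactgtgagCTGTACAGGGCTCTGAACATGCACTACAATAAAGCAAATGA
The MCAM probes were shifted by a single base and share the 59 bases in capitals:
MCAM A_72_P387268: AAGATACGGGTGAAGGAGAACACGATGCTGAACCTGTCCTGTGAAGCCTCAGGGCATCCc
MCAM O6542: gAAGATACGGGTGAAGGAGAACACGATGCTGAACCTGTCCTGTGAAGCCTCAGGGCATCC
The VEGFA probes below cover the same 38 bases, in capitals, on opposite strands, and the first was used:
VEGFA A_72_P414353: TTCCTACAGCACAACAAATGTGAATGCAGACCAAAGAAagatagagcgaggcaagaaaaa
VEGFA O11835: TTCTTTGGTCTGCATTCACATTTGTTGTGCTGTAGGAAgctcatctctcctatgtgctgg
LYVE1 had 2 probes that share no run of 20 bases, and the brighter one was used:
LYVE1 A_72_P414548: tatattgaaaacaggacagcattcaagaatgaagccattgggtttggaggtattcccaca
LYVE1 O12508: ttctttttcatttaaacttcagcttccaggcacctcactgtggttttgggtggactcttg
One of the dimmer HIF1A probes and the FLT4 probe that was not measured read:
HIF1A A_72_P585741: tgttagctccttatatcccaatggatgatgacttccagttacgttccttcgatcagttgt
FLT4 O1280: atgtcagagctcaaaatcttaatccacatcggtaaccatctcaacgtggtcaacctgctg

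Probes of 1 gene did not always give the same values. Over the 28 genes with more than 1 measured probe, the mean log2 signal of the brightest and dimmest probe differed by 3.60 in the median, and by more than 3 in 15 genes. For CDH5 the levels were 12.4 and 6.8. After the group means were removed, the 55 other probes correlated over the 48 pigs with the probe used at a median r of 0.751. The r was over 0.5 for 40 of them and under 0 for 3, 1 of FLT1 and 2 of PDGFRB. The diet change, HF minus LF, had the opposite sign to that of the probe used at 21 of the 55. The used VEGFA probe and its partner on the opposite strand had an r of 0.541, the LYVE1 probes 0.247, and the PROX1 probes 0.934. Which strand each probe reads was not checked against transcripts, so some probes may not read the RNA of their gene. Near the rule's limit, the dimmest SELE probe passed with 10 of 12 arrays in its best group, and the brightest PROX1 probe that failed had 5 of 12. The probes used were well above background on 45 to 48 of the 48 arrays.

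Diet was the first comparison, HF against LF over both lines. None of the blood endothelial, adhesion, lymphatic or mural genes passed the test. Of the 39 genes, 1 passed, HIF1A, which was lower under HF, while 12.6% of all 11092 genes passed it (3.3% higher and 9.33% lower). The test was limma with raw p under 0.01, fold change over 1.1 and Benjamini-Hochberg adjusted p under 0.08 over all genes. At an unadjusted p under 0.05 there were 5 of the 39, or 12.8%, against 26.0% of all genes. The median log2 change was 0.014 for the 39 genes and -0.039 for all genes, and the median size, sign aside, was 0.067 against 0.093. The 95% confidence interval of the diet change lay wholly within 1.5-fold either way for 37 of the 39 genes, or 94.9%, against 92.9% of all genes.

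**Figure D1:**
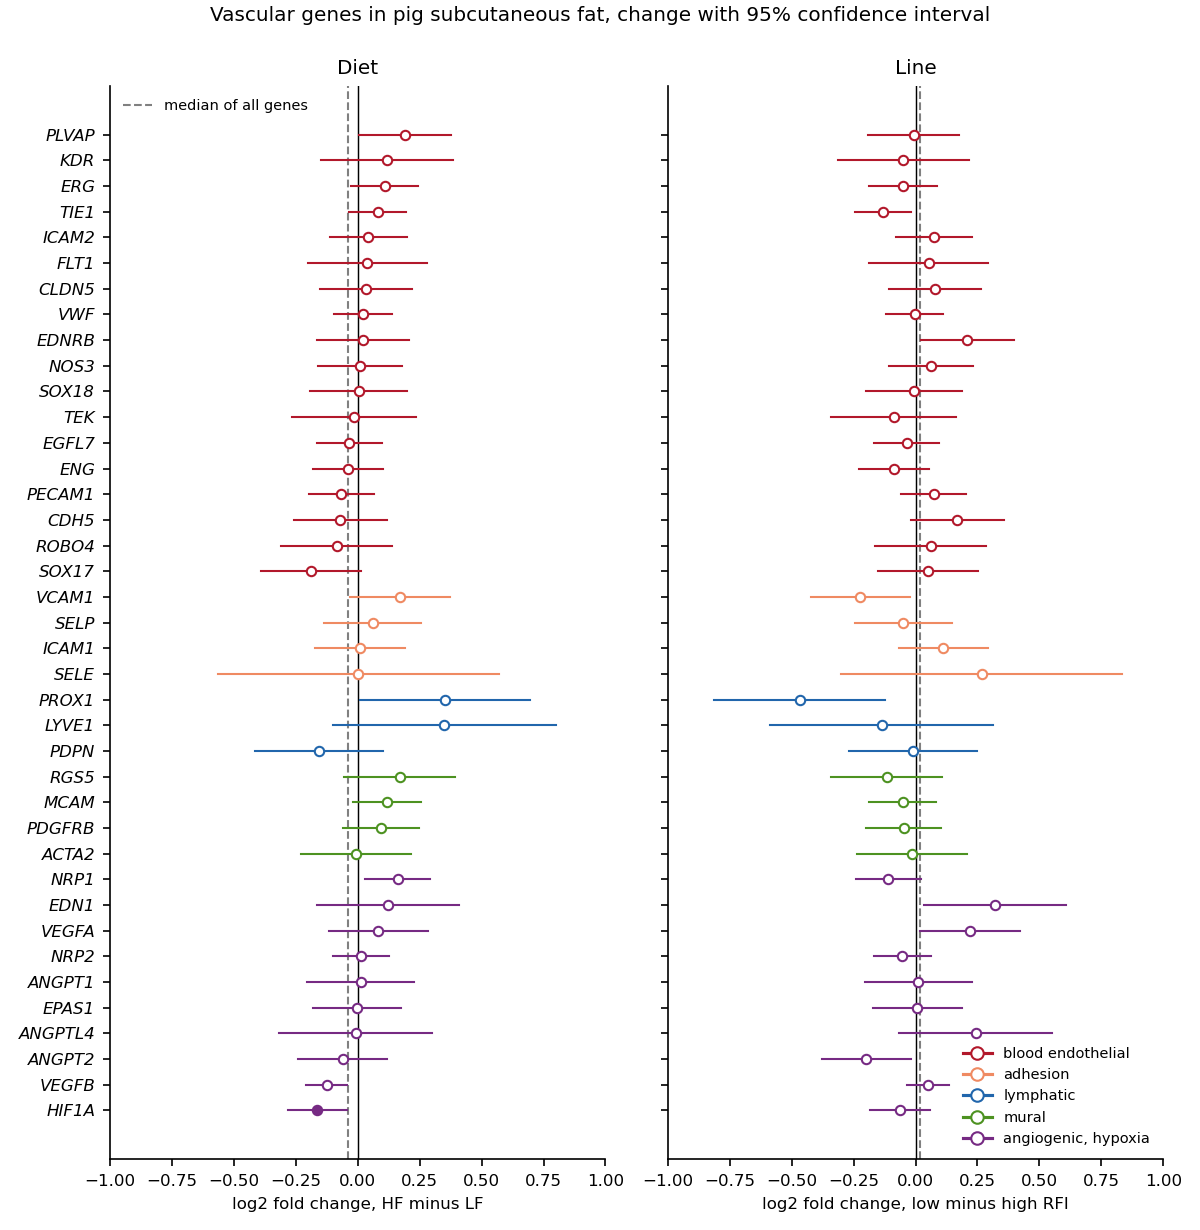
Log2 fold change of the 39 genes for diet (left) and line (right), grouped by class and ordered by diet change within it; points are estimates, bars 95% confidence intervals, filled points passed the test and the dashed line is the median of all genes. HIF1A at the bottom left is the one filled point, and the PROX1, LYVE1 and SELE bars are the widest for diet.

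Among the hypoxia transcription factors, HIF1A lay (lowest, median and highest of 12 pigs) at 2.93, 3.08 and 3.65 in HF low RFI pigs, 2.66, 3.23 and 3.34 in HF high RFI pigs, 3.09, 3.18 and 3.70 in LF low RFI pigs and 2.96, 3.39 and 3.72 in LF high RFI pigs. The groups overlapped widely, and 17 of 24 LF pigs were above the HF mean while 5 of 24 HF pigs were above the LF mean. The diet change was -0.16 (SE 0.060, 95% confidence interval -0.28 to -0.042, adjusted p = 0.0684), or 1.12-fold lower under HF. All 4 HIF1A probes were lower under HF, from -0.069 at the dimmest, printed above, to -0.16 at the one used, which shares 57 of its 60 bases with the next brightest (-0.14). The call sat at the edge of the test: with the mean of the 4 probes the change was -0.12 (adjusted p = 0.175) and with the 75th percentile in place of the median as the array reference it was -0.12 (adjusted p = 0.171), neither a call. Without the array on which the fewest probes were well above background, an HF high RFI pig, it was -0.15 (adjusted p = 0.0904) and no longer a call. Over all 23 alternatives HIF1A kept its call in 8. On the separate scan dates it was -0.19 and -0.14. EPAS1, the endothelial relative of HIF1A, changed by -0.0045 (SE 0.088, adjusted p = 0.982) at the probe used and by -0.15 to -0.11 at its 3 dimmer probes.

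Of the VEGF ligands, VEGFB, which acts through FLT1 and is abundant in fat and muscle, lay at 7.08, 7.26 and 7.41 in HF low RFI pigs, 6.82, 7.21 and 7.46 in HF high RFI pigs, 7.13, 7.36 and 7.53 in LF low RFI pigs and 7.16, 7.33 and 7.50 in LF high RFI pigs. The groups overlapped, though 19 of 24 LF pigs exceeded the HF mean. Its change of -0.13 (SE 0.042, 95% confidence interval -0.21 to -0.041, adjusted p = 0.0428) met both p cut-offs but, at 1.09-fold, not the fold cut-off of 1.1. Its other probe, which shares 54 bases with it, gave -0.12. VEGFA, the main driver of vessel sprouting, changed by 0.084 (SE 0.10, adjusted p = 0.638) at the probe used, and by -0.0066 and 0.091 at dimmer probes. The probe on the opposite strand, which cannot read the same RNA as the probe used, gave -0.062.

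NRP1, a co-receptor that strengthens VEGF signalling on endothelial cells, lay at 0.36, 0.84 and 1.20 in HF low RFI pigs, 0.69, 0.89 and 1.19 in HF high RFI pigs, 0.41, 0.60 and 1.14 in LF low RFI pigs and 0.26, 0.74 and 1.21 in LF high RFI pigs. Here 20 of 24 HF pigs were above the LF mean, and the change of 0.16 (SE 0.065, 95% confidence interval 0.030 to 0.29, adjusted p = 0.100) did not pass. It passed with the 75th percentile as the array reference and in 5 other alternatives. The other 6 genes of the class were ANGPT1 and ANGPT2, the ligands of TEK, ANGPTL4, a lipase inhibitor that responds to fasting and hypoxia, EDN1, the vasoconstrictor endothelin, NRP2, the lymphatic counterpart of NRP1, and EPAS1. Their diet changes ran from -0.060 for ANGPT2 to 0.12 for EDN1. The median of the 10 angiogenic and hypoxia genes was 0.0039.

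**Figure D2:**
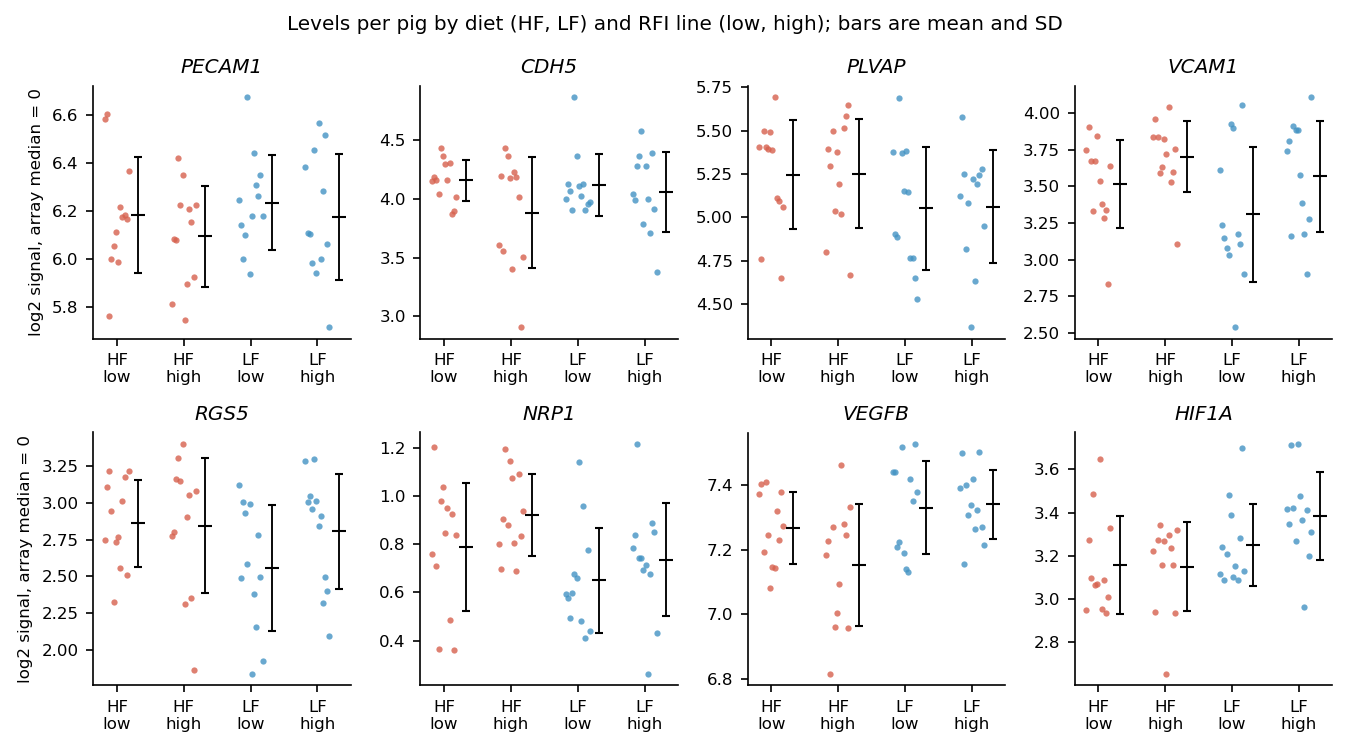
Level of 8 genes in every pig (log2 signal, array median 0) in the 4 groups of diet and RFI line; points are pigs, and the black marks mean and SD of 12. The HIF1A and VEGFB means sit lower in the HF groups, with points that overlap those of the LF groups, and the PECAM1 and CDH5 groups overlap one another.

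None of the 18 measured blood endothelial genes passed the diet test. Their median change was 0.015 and 11 of 18 were above 0. All 18 had a 95% confidence interval within 1.5-fold of no change. The junction genes gave -0.067 (SE 0.065, adjusted p = 0.556) for PECAM1, -0.069 (SE 0.093, adjusted p = 0.683) for CDH5 and 0.033 (SE 0.093, adjusted p = 0.858) for CLDN5, the tight junction protein.

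No receptor passed either. KDR, the main VEGFA receptor, changed by 0.12 (SE 0.13, adjusted p = 0.61), FLT1 by 0.038 (SE 0.12, adjusted p = 0.874) and TEK by -0.015 (SE 0.13, adjusted p = 0.959). The 3 other FLT1 probes went the other way, at -0.070, -0.079 and -0.070. The probe at -0.079 and the last one have the same 60 bases. The remaining genes include VWF, the clotting factor that endothelium stores, NOS3, which makes nitric oxide, the transcription factors ERG and SOX18, the surface proteins ENG, TIE1, ROBO4, ICAM2 and EDNRB, and the secreted EGFL7. At the probes used their changes ran from -0.085 for ROBO4 to 0.11 for ERG. Other probes gave -0.14 and -0.17 for VWF, -0.13 and 0.053 for EDNRB, and 0.020 and -0.10 for NOS3. The dimmer SOX18 probe gave -0.30 with an r of 0.138 to the probe used, which gave 0.0036. Whether the dimmer probe reads the SOX18 strand was not checked.

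The blood endothelial genes with the largest changes went opposite ways. PLVAP, which forms the diaphragms of fenestrated capillaries, lay at 4.65, 5.39 and 5.69 in HF low RFI pigs, 4.67, 5.34 and 5.65 in HF high RFI pigs, 4.53, 5.03 and 5.69 in LF low RFI pigs and 4.37, 5.16 and 5.58 in LF high RFI pigs. The groups overlapped and the change was 0.19 (SE 0.092, 95% confidence interval 0.0073 to 0.38, adjusted p = 0.172). SOX17, a transcription factor of arterial endothelium, lay at -2.69, -2.03 and -1.64 in HF low RFI pigs, -2.76, -2.03 and -1.65 in HF high RFI pigs, -2.42, -2.01 and -1.34 in LF low RFI pigs and -2.47, -1.90 and -1.31 in LF high RFI pigs. Its groups also overlapped, with a change of -0.19 (SE 0.10, 95% confidence interval -0.39 to 0.012, adjusted p = 0.225).

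The adhesion genes, which endothelium shows to passing leukocytes, did not pass in either direction (0 of 4), with a median of 0.035. VCAM1 lay at 2.84, 3.59 and 3.90 in HF low RFI pigs, 3.1, 3.74 and 4.04 in HF high RFI pigs, 2.54, 3.16 and 4.05 in LF low RFI pigs and 2.90, 3.66 and 4.11 in LF high RFI pigs. The LF low RFI pigs reached lowest, and all groups overlapped, with a diet change of 0.17 (SE 0.10, 95% confidence interval -0.031 to 0.37, adjusted p = 0.283). SELP, which lets leukocytes roll along the wall, lay at 0.61, 1.41 and 1.98 in HF low RFI pigs, 0.93, 1.53 and 2.13 in HF high RFI pigs, 0.93, 1.34 and 1.90 in LF low RFI pigs and 0.93, 1.34 and 1.88 in LF high RFI pigs. The groups overlapped, and SELP changed by 0.060 (SE 0.097, adjusted p = 0.738). ICAM1, which holds leukocytes firmly, changed by 0.0095 (SE 0.089, adjusted p = 0.964). SELE, which endothelium makes only when inflamed, was dim and the most scattered of the 39 genes, with a change of 0.0032 (SE 0.28, 95% confidence interval -0.56 to 0.57, adjusted p = 0.996).

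None of the 4 mural genes passed the diet test, and their median change was 0.11. RGS5, a pericyte regulator of G protein signalling, lay at 2.33, 2.86 and 3.22 in HF low RFI pigs, 1.86, 2.98 and 3.40 in HF high RFI pigs, 1.84, 2.54 and 3.12 in LF low RFI pigs and 2.09, 2.93 and 3.30 in LF high RFI pigs. The LF low RFI pigs had the lowest median, the groups overlapped, and the change was 0.17 (SE 0.11, 95% confidence interval -0.053 to 0.39, adjusted p = 0.339). On the separate scan dates it was -0.0048 and 0.35. MCAM, an adhesion protein shared by mural and endothelial cells, lay at -1.59, -1.20 and -0.89 in HF low RFI pigs, -1.68, -1.18 and -0.71 in HF high RFI pigs, -1.60, -1.39 and -0.97 in LF low RFI pigs and -1.65, -1.27 and -0.99 in LF high RFI pigs, overlapping throughout, and changed by 0.12 (SE 0.067, 95% confidence interval -0.017 to 0.25, adjusted p = 0.265). PDGFRB, the receptor that recruits pericytes, changed by 0.094 (SE 0.076, adjusted p = 0.456) at the probe used but by -0.095 at a dimmer probe that did not follow it among pigs (r = -0.132). ACTA2, the smooth muscle actin, changed by -0.0060 (SE 0.11, adjusted p = 0.981), with -0.20 on the first scan date and 0.19 on the second, and its 7 other probes gave values from -0.026 to 0.16.

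**Figure D3:**
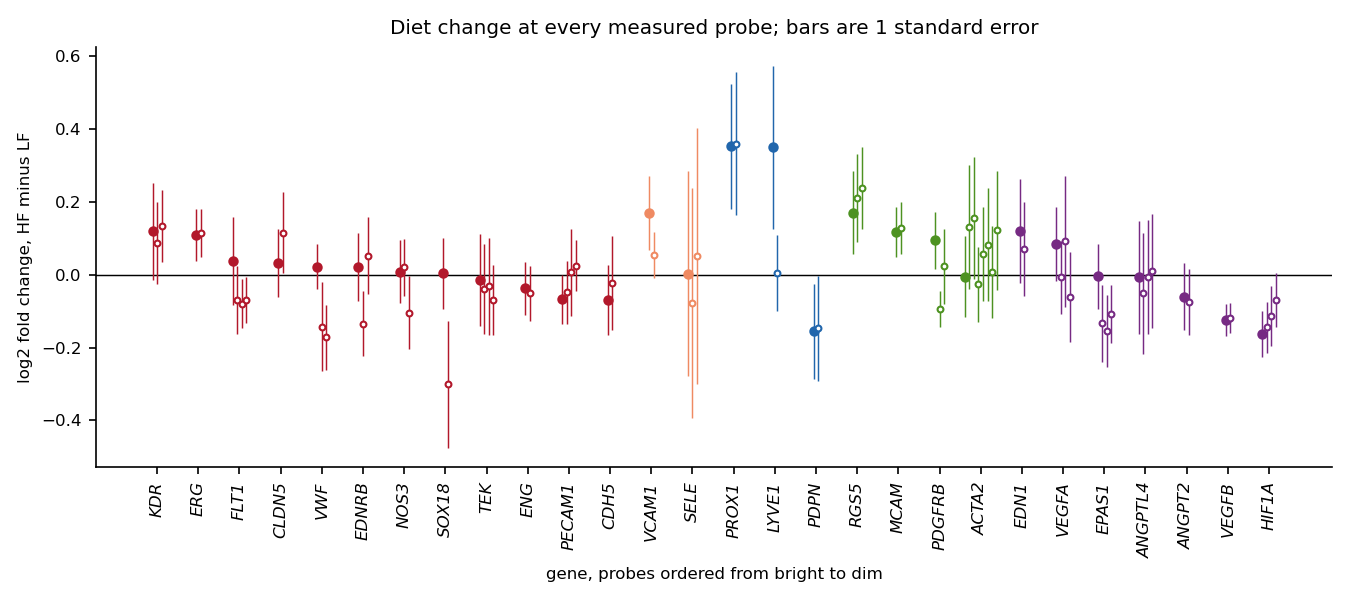
Diet log2 fold change at every measured probe of the 28 genes with more than 1 probe, coloured by class as in the plot of changes; filled points are the probes used, open points the others from bright to dim, and bars 1 standard error. The HIF1A, VEGFB and PROX1 probes fall on one side of 0 for each gene, whereas LYVE1, SOX18 and VWF have the widest spread between probes. The strand that each probe reads was not checked.

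None of the 3 measured lymphatic genes passed the diet test, though PROX1 and LYVE1 had the largest diet changes of the 39 genes, and the class median was 0.35. PROX1 lay at -3.20, -2.22 and -1.39 in HF low RFI pigs, -2.56, -1.91 and -1.24 in HF high RFI pigs, -4.29, -2.75 and -1.67 in LF low RFI pigs and -2.68, -2.24 and -1.33 in LF high RFI pigs. One LF low RFI pig stood apart at -4.29, and the groups overlapped. The diet change was 0.35 (SE 0.17, 95% confidence interval 0.0075 to 0.70, adjusted p = 0.181). LYVE1, a hyaluronan receptor of lymphatic endothelium that some tissue macrophages also carry, lay at -2.41, -1.67 and -0.23 in HF low RFI pigs, -2.73, -1.54 and -0.61 in HF high RFI pigs, -3.54, -2.00 and 0.24 in LF low RFI pigs and -3.40, -1.63 and -0.11 in LF high RFI pigs. Its LF groups held both the highest and the lowest pigs, and its change was 0.35 (SE 0.22, 95% confidence interval -0.10 to 0.80, adjusted p = 0.33) at the brighter probe and 0.0046 at the other, both printed above. Whether the dimmer of these probes reads the LYVE1 strand was not checked. PDPN, a lymphatic surface protein also made by fibroblasts, changed by -0.16 (SE 0.13, adjusted p = 0.468).

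The PROX1 change had opposite signs on the 2 scan dates. On the first date PROX1 lay at -3.20, -2.41 and -1.57 in 12 HF pigs and at -3.18, -2.12 and -1.33 in 12 LF pigs, a change of -0.21 (SE 0.20, adjusted p = 0.611). On the second date it lay at -2.65, -1.67 and -1.24 under HF and at -4.29, -2.48 and -1.68 under LF, and the change of 0.91 (SE 0.22, adjusted p = 0.0432) passed the test. There, 6 of 12 LF pigs lay below every HF pig. The diet change on the second date minus that on the first was 1.12 (SE 0.30, raw p = 0.000582 in limma), which did not hold after adjustment over all genes (adjusted p = 0.999). For that difference 0.00902% of all genes and none of the 39 passed.

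CCL21, the chemokine by which lymphatic vessels draw in dendritic cells, is no member of the 39 but moved with PROX1. After group means were removed, its r with PROX1 over 48 pigs was 0.764, and that of RELN, reelin, which lymphatic endothelium secretes, was 0.674. Of the other genes linked to lymphatic vessels in the wider list, CCBE1 had an r of 0.335, FOXC2 0.161, STAB1 0.0311 and NR2F2 0.015. LYVE1 (-0.147) and PDPN (0.227) followed PROX1 weakly or not at all, as did PECAM1 (-0.178). These pigs share slides and scan dates, and with slide means removed too the values for CCL21 and RELN were 0.787 and 0.685.

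CCL21 rose under HF by 0.88 (SE 0.31, adjusted p = 0.0534) and passed the test. It was the one of these 6 wider-list genes to pass. RELN changed by 0.0015 (SE 0.16, adjusted p = 0.996), and FOXC2, STAB1, NR2F2 and CCBE1 by -0.15, -0.022, 0.059 and 0.14. The CCL21 change was -0.17 on the first date and 1.94 on the second, where it lay at 2.30, 3.78 and 4.64 under HF and at -2.99, 2.32 and 4.05 under LF. The 4 pigs with the lowest PROX1 of all 48 were LF low RFI pigs of the second date, and their CCL21 levels were -2.99, 0.48, 0.66 and 0.85. Without the lowest of them the PROX1 change was 0.28 (adjusted p = 0.247) and that of CCL21 0.67 (adjusted p = 0.0503), still a call. Without that pig the line change of CCL21, given further on, became one, at -0.80 (adjusted p = 0.076), and LYVE1 changed with diet by 0.45 (adjusted p = 0.135). The part of the scan date and of these pigs in the change was not tested further.

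**Figure D4:**
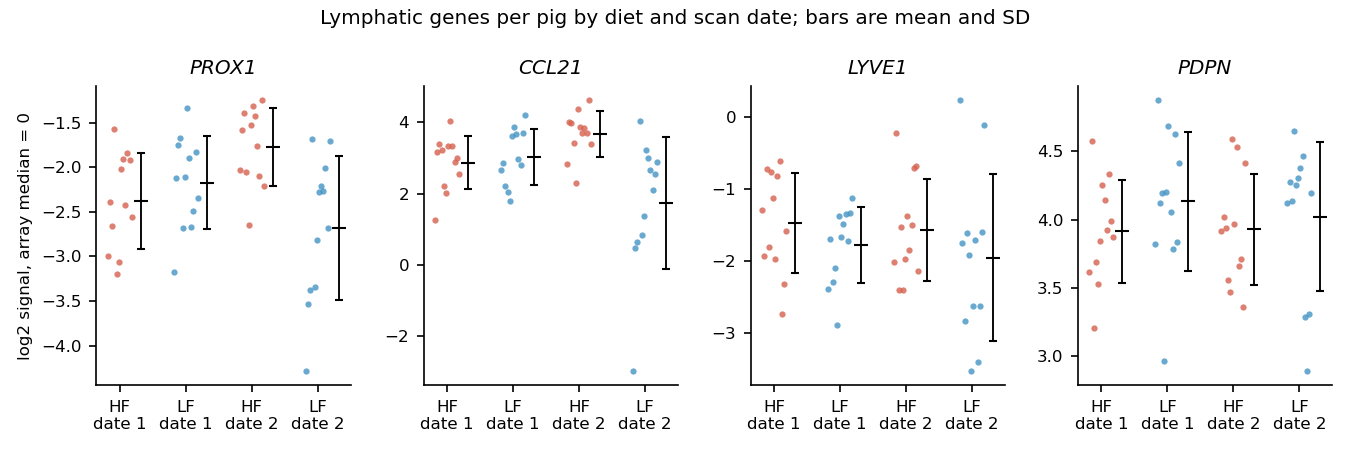
Level of 4 lymphatic genes in every pig (log2 signal, array median 0) by diet and scan date; points are pigs and the black marks mean and SD of 12. The LF pigs of the second date reach lowest for PROX1 and CCL21, where the medians of LF and HF lie furthest apart; the LYVE1 and PDPN medians lie closer together on both dates.

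Line was the second comparison, low against high RFI over both diets. None of the 39 genes passed in limma, where 1.16% of all genes did (0.775% higher and 0.388% lower in the low RFI line), and none passed in the analysis of variance of the study's methods. At an unadjusted p under 0.05 there were 7 of 39, or 17.9%, against 10.3% of all genes. The median line change was -0.0079 against 0.017 for all genes, and by class it was 0.023 for blood endothelial, 0.032 for adhesion, -0.14 for lymphatic, -0.050 for mural and 0.0095 for angiogenic and hypoxia genes. The confidence interval lay within 1.5-fold of no change for 35 of the 39, or 89.7%, against 94.1% of all genes.

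The 7 genes under that unadjusted limit, named after their values were seen, split both ways. PROX1 differed most, at -0.47 (SE 0.17, 95% confidence interval -0.81 to -0.12, adjusted p = 0.232), lower in the low RFI line. VCAM1 gave -0.22 (SE 0.10, adjusted p = 0.396), ANGPT2 -0.20 (SE 0.089, adjusted p = 0.394) and TIE1 -0.13 (SE 0.056, adjusted p = 0.356). EDN1 gave 0.32 (SE 0.14, adjusted p = 0.393), VEGFA 0.22 (SE 0.10, adjusted p = 0.401) and EDNRB, an endothelin receptor, 0.21 (SE 0.092, adjusted p = 0.381). The VEGFA probe on the opposite strand gave 0.065 and the other VEGFA probes 0.017 and -0.051. None of the 7 can be called different between the lines.

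Of the genes described with diet, HIF1A differed between the lines by -0.063 (SE 0.060, adjusted p = 0.844), PLVAP by -0.0079 (SE 0.092, adjusted p = 0.993), SOX17 by 0.049 (SE 0.10, adjusted p = 0.949), SELP by -0.049 (SE 0.097, adjusted p = 0.949), LYVE1 by -0.14 (SE 0.22, adjusted p = 0.931), RGS5 by -0.12 (SE 0.11, adjusted p = 0.847), MCAM by -0.052 (SE 0.067, adjusted p = 0.91), NRP1 by -0.11 (SE 0.065, adjusted p = 0.617) and VEGFB by 0.052 (SE 0.042, adjusted p = 0.793). All of these had a 95% confidence interval that held 0.

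The diet by line interaction asked whether the lines answered the diet differently. No gene of the 39 passed, nor any of all 11092 (0%), and the count was 0 in the analysis of variance as well. None of the 39 reached an unadjusted p under 0.05 for it, against 99 of all genes, and the smallest unadjusted p was 0.148. Within low RFI pigs, where 2.44% of all genes passed for diet (0.631% higher and 1.81% lower under HF), 0 of 39 did and 0 were under an unadjusted 0.05, against 1661 of the 11092 genes. Within high RFI pigs, where 1.51% passed (0.261% higher and 1.24% lower), 0 did and 3 were under 0.05, against 1531 of all genes. HIF1A changed by -0.091 (SE 0.084) in low RFI pigs and by -0.23 (SE 0.084) in high RFI pigs, and VEGFB by -0.064 and -0.19. The interaction was 0.14 (SE 0.12, adjusted p = 1.0) for HIF1A and 0.12 (SE 0.084, adjusted p = 1.0) for VEGFB. Between the lines, 0 of 39 passed under HF (0.00902% of all genes; 1 under an unadjusted 0.05, against 516 of all genes) and 0 under LF (0.0631%, of which 0.0451% higher and 0.018% lower in low RFI pigs; 2 under 0.05, against 713).

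The spread between pigs of a group differed from class to class. The median SD within a group was 0.33 for blood endothelial, 0.35 for adhesion, 0.61 for lymphatic, 0.33 for mural and 0.31 for angiogenic and hypoxia genes, against 0.27 for all genes. VEGFB was among the steadiest genes measured, at percentile 5.99 of the SD over all genes. SELE, LYVE1 and PROX1 were among the least steady, at percentiles 98.6, 97.3 and 93.3. The 4 group ranges overlapped for every gene described above.

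Among pigs of one group, blood endothelial genes went together more often than against each other, and their pairs with lymphatic genes were more often negative. With group means removed, the median Pearson r over pairs was 0.161 within the 18 blood endothelial genes (109 of 153 pairs above 0) and 0.326 within the 4 mural genes (all 6 pairs above 0). Within the 3 lymphatic genes it was 0.061, and -0.015 with slide means also removed. Over pairs of all genes the median was 0.00732. Between blood endothelial and mural genes it was 0.108, and between blood endothelial and lymphatic genes -0.137, with 16 of 54 pairs above 0. With slide means also removed these 2 medians were 0.0902 and -0.0768. The pigs share slides and dates and the genes share arrays, so these values are a description and carry no test.

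The 9 pairs of the 39 genes with the highest r were these. NOS3 went with EDNRB at r = 0.80, and with ANGPTL4 at 0.66. EPAS1 went with KDR at 0.76 and with TEK at 0.76. SOX18 went with EGFL7 at 0.76 and with ENG at 0.63. ERG, which drives CDH5, went with CDH5 at 0.64 and with RGS5 at 0.63, and PDGFRB with ANGPT1, which pericytes make, at 0.63. With slide means also removed, PDGFRB with ANGPT1 had an r of 0.45, CDH5 with ERG 0.51 and ERG with RGS5 0.55, and the other 6 lay between 0.68 and 0.80. The most negative pairs were FLT1 with ANGPT1 (-0.55), EGFL7 with LYVE1 (-0.54) and FLT1 with PDGFRB (-0.54). With slide means also removed, FLT1 with ANGPT1 had an r of -0.30 and FLT1 with PDGFRB one of -0.28, while EGFL7 with LYVE1 stayed at -0.56. The FLT1 probe used is the one whose r with another FLT1 probe was -0.122.

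**Figure D5:**
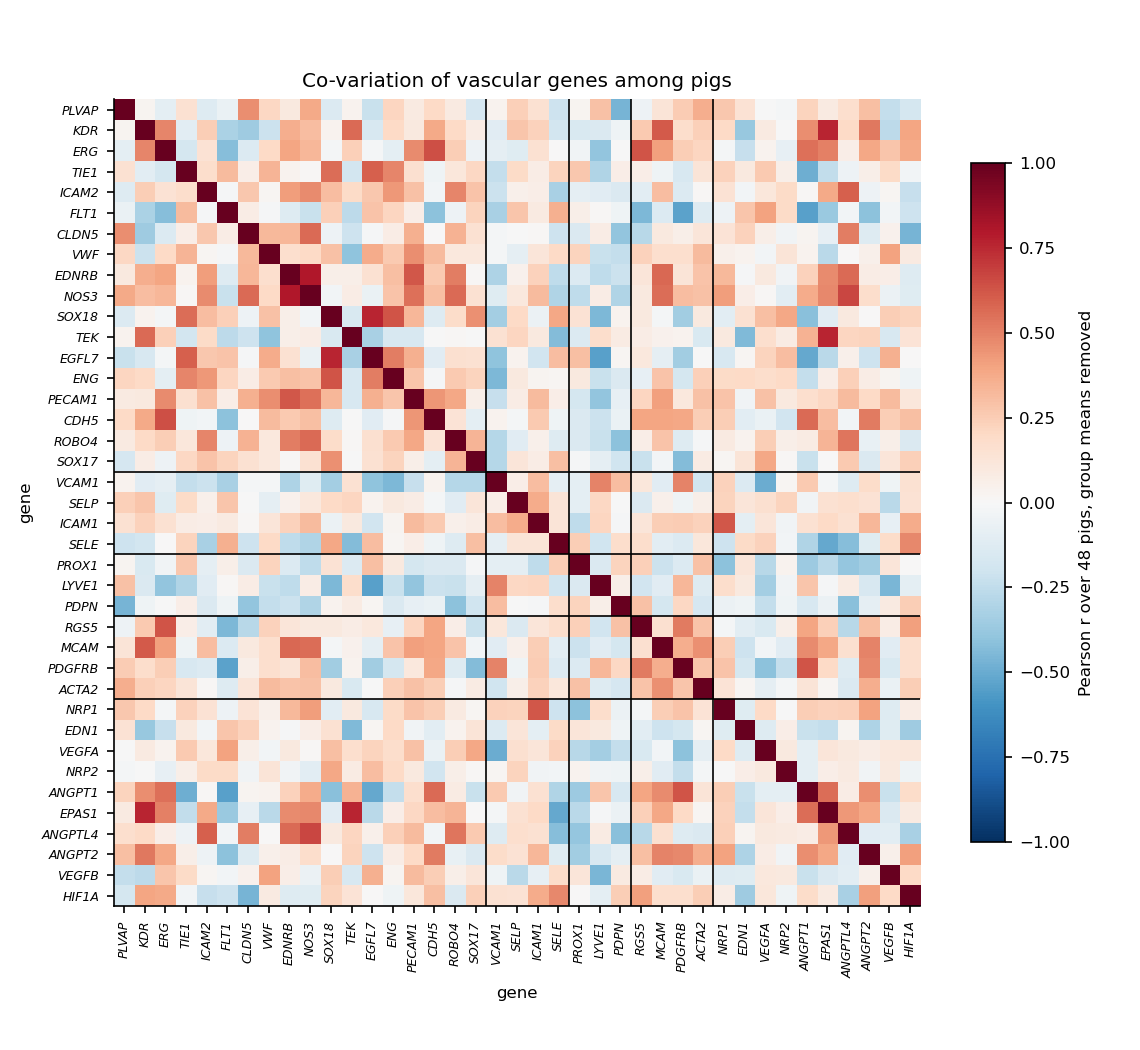
Pearson r between the 39 genes over 48 pigs after removing group means; black lines part the classes in the order blood endothelial, adhesion, lymphatic, mural, angiogenic and hypoxia, and colour runs from -1 (blue) to 1 (red). Red blocks stand out among mural genes and around NOS3, EDNRB and EGFL7, and the lymphatic rows are pale or blue against blood endothelial genes.

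The lymphatic genes were also set against markers of other cells in the tissue. LYVE1 went with the mean level of 13 macrophage markers (r = 0.646) and of 13 fibroblast and preadipocyte markers (0.719) and against 13 adipocyte markers (-0.62). For PROX1 the same values were -0.239, 0.175 and -0.0052, and for PDPN 0.188, 0.362 and 0.016. VCAM1, which macrophages and stromal cells also make, went with the macrophage markers (0.644), and VEGFB with the adipocyte markers (0.536). PECAM1 went with adipocyte markers (0.432) and against fibroblast markers (-0.462). The median over the blood endothelial genes was 0.223 with adipocyte and -0.299 with fibroblast markers.

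A wider list of 60 further vascular genes, 51 of them measured, held 5 that passed the diet test (9.8%, against 12.6% of all genes), 3 higher and 2 lower under HF, with a list median of 0.024. Besides CCL21, the higher ones were RHOJ, at 0.22 (SE 0.050, adjusted p = 0.00279), and CLEC14A, a surface lectin of angiogenic endothelium, at 0.20 (SE 0.073, adjusted p = 0.0663). The lower ones were GJA5, a gap junction protein of arteries, at -0.25 (SE 0.078, adjusted p = 0.0275), and JAG1, a Notch ligand, at -0.20 (SE 0.068, adjusted p = 0.0516). For line, LDB2 was lower in low RFI pigs, at -0.24 (SE 0.067, adjusted p = 0.0691), the only one of the 51 to pass (1.96%, against 1.16% of all genes). CCL21 gave a line change of -1.01 with an adjusted p of 0.116, not a call.

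Of 17 further mural genes, 16 were measured, and 2 passed for diet, both lower under HF (12.5%, the share of all genes being 12.6%; list median -0.066). CALD1, the contractile caldesmon, gave -0.24 (SE 0.054, adjusted p = 0.00235) and NDUFA4L2, a mitochondrial gene of pericytes that responds to hypoxia, -0.17 (SE 0.056, adjusted p = 0.0381). HIGD1B, a pericyte marker, was the 1 of 16 that passed for line, where 1.16% of all genes did, and was higher in low RFI pigs, at 0.61 (SE 0.15, adjusted p = 0.0354).

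Of 23 genes known to be raised by HIF factors or to control them, 21 were measured, with a median diet change of -0.12 against -0.039 for all genes, and 3 passed, all lower under HF (14.3%, near the 12.6% of all genes). They were PDK1, a pyruvate dehydrogenase kinase, at -0.27 (SE 0.070, adjusted p = 0.00772), and the glycolytic genes ALDOA, at -0.24 (SE 0.068, adjusted p = 0.0146), and PFKFB3, at -0.40 (SE 0.15, adjusted p = 0.0679). At an unadjusted p under 0.05 there were 10 of 21, or 47.6%, against 26.0% of all genes. PDK1 was the one of the 21 that also passed for line (4.76%, against 1.16% of all genes), higher in low RFI pigs at 0.29 (SE 0.070, adjusted p = 0.0292). On the separate scan dates PDK1 changed with diet by -0.33 and -0.22, ALDOA by -0.30 and -0.19, and PFKFB3 by -0.19 and -0.61.

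Markers of other cells in fat are given beside the diet test's share over all genes, 3.3% higher and 9.33% lower. Of 13 measured adipocyte markers 3 passed, all lower under HF (median -0.089), and of 13 fibroblast and preadipocyte markers 2 passed, both higher (median 0.18, 12 of 13 above 0). None passed among 13 macrophage (median 0.024), 10 lymphocyte (0.017), 12 skeletal muscle (-0.21) and 6 mesothelial or epithelial markers (0.42), and 1 of 7 blood cell markers was lower (median -0.12). The mean level of the adipocyte markers in a pig ran from 7.0 to 7.35 in HF pigs of low RFI, 6.78 to 7.41 in those of high RFI, 6.91 to 7.55 in LF pigs of low RFI and 6.85 to 7.42 in LF pigs of high RFI. That of the fibroblast markers ran from 4.34 to 5.12 in HF pigs of low RFI, 4.41 to 5.23 in those of high RFI, 4.01 to 5.22 in LF pigs of low RFI and 4.0 to 5.68 in LF pigs of high RFI. The mean over the 18 blood endothelial genes in a pig ran from 2.47 to 2.8 in HF pigs of low RFI, 2.29 to 2.82 in those of high RFI, 2.40 to 2.90 in LF pigs of low RFI and 2.22 to 2.79 in LF pigs of high RFI, so the groups overlapped almost wholly. The part of the adipocyte and fibroblast markers in the HIF1A, VEGFB and lymphatic values was not tested.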

How the data were processed

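Subcutaneous fat RNA of 48 pigs was hybridised to 1-colour Agilent arrays (Cy3) with 60305 distinct probes. The deposited scanner files hold background-subtracted intensity values written by Feature Extraction 10.7.3.1, and the authors also deposited a log2 table of 38987 probes, which equals the log2 median signal minus each array's median (largest difference 4.87e-09) and served as an alternative. Per the submitters' processing notes R 2.10.0 was used. As the study centred each array on its median, here log2 processed signal was centred on the array median, but over the probes well above background on 9 or more of 12 arrays of a group (44356 probes), another signal and probe set than in the authors' table. The scanner software's flags for uneven spots and for outliers among repeated spots removed 227 spots, and none was saturated. Probes were named by accession, gene number or array gene name through the RefSeq gene table, which gave 26773 of all probes a gene. The brightest probe stood for each gene.

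Group means were fitted with limma 3.58.1 (R 4.3.3, eBayes with intensity trend) over 11092 genes, and genes were called at raw p under 0.01, fold over 1.1 and Benjamini-Hochberg adjusted p under 0.08, the limits in the study's methods. The script was tested on simulated data. No counts lie behind these values, so the number of arrays limits the precision, and the median SE of a diet change was 0.093 for the 39 genes. Nothing says which pigs shared a litter or pen, so p-values measure the spread between these pigs.

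Members, lists and tests were chosen with earlier results of these data known. Full values were given for called members and the 2 others of each class with the largest diet change, and called genes were named from the vascular, mural and hypoxia lists. Alternatives covered scaling, background, filters, flags, probe choice, blocks by slide, scan date, array position and replicate number, single scan dates, array weights, an array median covariate and the call rule. The scan date difference and the alternatives without the array of lowest detected share or of lowest PROX1 were added after the data were seen.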

Additional observations from a re-analysis of the deposited data

How the results depend on the processing

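HIF1A was lower under HF in all 23 alternatives (-0.19 to -0.11) but kept its call in 8, with adjusted p from 0.026 to 0.526. The count of the 39 genes called by diet was 0 with no filter on dim probes, with only probes well above background on all arrays, with the mean of all kept probes, with array position as a block, on the first scan date alone and without the array of lowest detected share. It was 2 (NRP1 and HIF1A) with array weights and without LF low RFI replicate 7. Apart from the replicate block, given below, it was 1 in the others, where the gene called was NRP1 (75th percentile scaling, normexp, no background subtraction, the authors' table), VEGFB (background outlier flags, adjusted p under 0.05 alone), ERG (quantile normalization), PROX1 (second scan date) or HIF1A. Within high RFI pigs 1 gene was called by diet with slide as a block and 1 with array weights. Counts for line, for the interaction and for diet within low RFI pigs were 0 in all 23 alternatives. Of all genes, diet called 1401, but 660 on the first date alone and 263 on the second, and line called 129, but 0 on the second date, 44 with array position as a block, 225 with slide, 205 with scan date, 478 with array weights and 255 without LF low RFI replicate 7.

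On the first date alone the lymphatic median and PROX1 diet change were both -0.21, RGS5 changed with diet by -0.0048, and the line changes of PLVAP and SOX17 were 0.14 and -0.0075. On the second date the line changes of HIF1A, RGS5 and MCAM were 0.0078, 0.016 and 0.087, and with the array median as a covariate that of PLVAP was 0.0043. All of these turned direction against the values over both dates, and the cause was not tested. The other class medians kept within -0.029 to 0.056 for blood endothelial, -0.0082 to 0.11 for adhesion, 0.029 to 0.16 for mural and -0.059 to 0.045 for angiogenic and hypoxia genes.

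Replicate numbers recur in all groups. Same-numbered pigs deviated together with a mean r from -0.0013 to 0.379 (over 0.1 for 9 of 12 numbers; lowest pair -0.217), against -0.0144 between other numbers. In every group replicates 1 to 6 were scanned on the first date and 7 to 12 on the second, and each slide held the same 2 numbers of every group. The labels give the numbers no such meaning and not every pair's r was over 0.1, so they were not counted as pairing the pigs beyond the slide, and with slide as a block HIF1A kept its call (adjusted p = 0.0551). With the replicate number as a block, diet called 0 of the 39 genes (HIF1A lost its call), 1 within high RFI pigs and 1692 of all genes, and line called 288.

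Signal over background limits single genes: FLT4 was not measured, and the SELE probe used was well above background on 45 of 48 arrays. Genes with no named probe here were not analysed.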
